A study of Mus musculus with 2 samples.

Results

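The genes described here are 43 mouse genes of the DNA damage response and of DNA repair, taken by name from a fixed list and grouped into 6 pathways. All 43 were found once in both deposited gene tables, which hold 23746 records each. The values are FPKM, a level normalised for library size and transcript length, from RNA sequencing of SmoM2-driven medulloblastoma, a cerebellar tumour switched on by an active form of the Hedgehog receptor component Smoothened. The Brg1KO library came from a CAG-CreER, Rosa26-SmoM2, Brg1F/F mouse and the WT library from a CAG-CreER, Rosa26-SmoM2, Brg1+/+ mouse. Both genotypes therefore carried the inducible Cre and the oncogenic transgene, and both received 10 tamoxifen injections. Brg1, encoded by Smarca4, is a motor ATPase of BAF, a complex that remodels chromatin. The CAG promoter is active in most cell types, so recombination need not be limited to tumour cells. The labels state neither the age nor the sex of the animals.

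There was 1 library per genotype. The values below therefore carry no replicate error and no p-value, and "higher" and "lower" compare these 2 libraries, which also come from different animals. In place of a test, genes are called by size, at a log2 ratio of 1 or more in either direction. The log2 ratio is log2((Brg1KO FPKM + 1)/(WT FPKM + 1)), which makes the differences of low genes smaller than on the FPKM scale. Of all records, 13279 reached 1 FPKM in at least 1 library and were compared. FPKM summed to 343028 in the Brg1KO library and to 388032 in the WT library, and read depth is unknown because the tables give no counts. Smarca4 itself had 3.76 FPKM in the Brg1KO library and 14.05 FPKM in the WT library (log2 ratio -1.66). FPKM of the whole gene also counts exons that remain after recombination and gives no share of recombined cells. Granule neuron precursor markers were detected in both libraries. Their summed level was 315.8 FPKM in the Brg1KO library and 588.9 FPKM in the WT library. In the Brg1KO library 4 of 8 were at least 2-fold lower, against 8.67% of all compared records. These were Mycn (log2 ratio -3.19), Gli1 (-3.17), Gli2 (-2.77) and Atoh1 (-2.58). Barhl1 (-0.98), Zic2 (-0.34), Zic1 (0.42) and Pax6 (0.79) were within 2-fold. Zic1 (99.8 FPKM) and Zic2 (96.4 FPKM) had the highest Brg1KO levels of the 8, so the sum does not follow the lower genes and gives no share of tumour cells.

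Cells meet DNA damage with several systems. Homologous recombination rebuilds a broken chromosome from its sister copy, and the Fanconi pathway removes crosslinks that block replication forks, so both act mainly in cells that copy their DNA. Excision repair replaces damaged bases or short stretches and end joining seals breaks directly, in dividing and resting cells alike. Checkpoint kinases halt the cell cycle while repair proceeds. Granule neuron precursors of the cerebellum divide rapidly and depend on these systems during development.

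In the Brg1KO library 19 of the 43 genes passed the rule as lower and 0 as higher. Among all compared records 8.67% were at least 2-fold lower and 16.1% at least 2-fold higher. The median log2 ratio was -0.91 for the 43 genes and 0.09 for all compared records. The counts differed between pathways. The lower genes made up 8 of 11 homologous recombination genes, 5 of 8 Fanconi genes, 4 of 9 checkpoint genes and 2 of 9 excision repair genes, but 0 of 2 mismatch repair genes and 0 of 4 end joining genes. Median log2 ratios were -1.23 for homologous recombination, -1.14 for Fanconi, -0.97 for checkpoint, -0.72 for excision, -0.58 for mismatch and -0.27 for end joining. With Exo1, which serves both pathways, counted under mismatch repair, the mismatch median was -0.93, and with FPKM rescaled to the same sum the end joining median was -0.13. Within pathways the genes varied widely: excision repair alone ran from -2.60 to 0.52. Altogether 38 of the 43 log2 ratios were below 0, against 45.2% of all compared records. The 5 above 0 were Fance, Xpa, Xpc, Ercc4 and Prkdc, all within 2-fold.

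**Figure D1:**
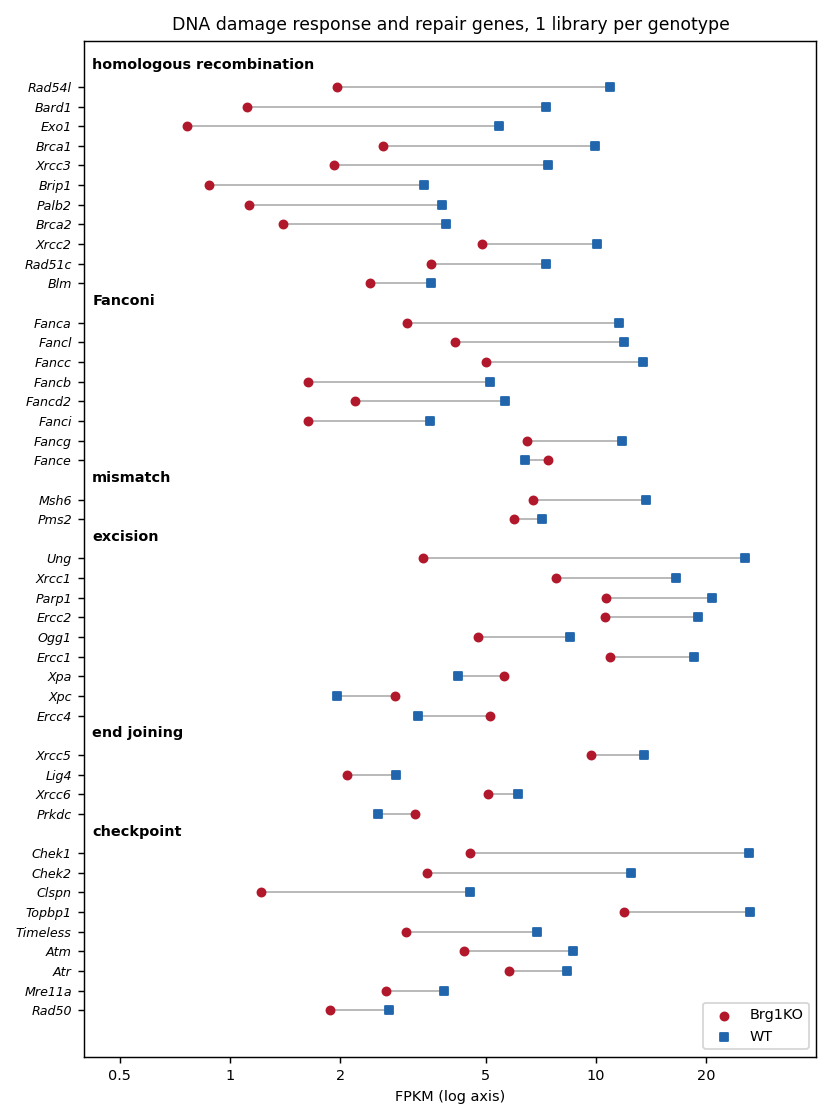
FPKM on a log axis for each of the 43 genes in the Brg1KO library (circles) and the WT library (squares), grouped by pathway and ordered within it by log2 ratio. The circle lies left of the square for 38 genes, with the widest gaps at Ung, Exo1, Bard1, Chek1 and Rad54l.

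The summed level of the 43 genes was 187.3 FPKM in the Brg1KO library and 406.2 FPKM in the WT library. The make-up of that sum differed as well. Homologous recombination genes took 12.1% of it in the Brg1KO library and 17.9% in the WT library, and checkpoint genes took 20.7% in the Brg1KO library and 24.6% in the WT library. End joining genes took 10.7% in the Brg1KO library and 6.16% in the WT library, and excision genes took 32.9% in the Brg1KO library and 29.1% in the WT library. In bulk tissue, fewer cells that express a gene and less RNA per cell cannot be told apart.

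Many genes of replication and its surveillance carry sites for E2F factors, which drive S-phase transcription, so the promoters of the members were read for such sites. Promoter sequences were available from RefSeq (GRCm38.p6, which is mm10) for 37 of the 43 genes, and the 250 bases before the start site were searched on both strands. The comparison is with all 27025 genes in the promoter table, which include silent and non-coding genes, and with the 9421 of 13273 expressed genes that have an entry there. Other repair, DNA replication and mitosis genes, described below, had 81, 26 and 19 entries. An E2F core (TTNNCGC, where each N is C or G and matches may overlap) was found in 29.7% of the members' promoters, 14.5% of those of expressed genes and 7.97% of all. The core was in 29.6% of promoters of other repair genes, 42.3% of DNA replication genes and 15.8% of mitosis genes, so its share was not particular to the members. It was found in 5 of 17 promoters of members at least 2-fold lower and in 6 of 20 promoters of members within 2-fold, so these letters did not separate the groups. The CCAAT box (CCAAT) was in 56.8% of the members' promoters, 36.7% of those of expressed genes and 34.5% of all. For other repair, DNA replication and mitosis genes the CCAAT shares were 53.1%, 61.5% and 84.2%. The GC box (GGGCGG) was about as frequent in members (62.2%) as in expressed genes (60.1%), against 32.9% of all promoters. The CHR element of mitotic genes (TTNGAA, where N is T or C) was in 5.41% of the members' promoters, 11.6% of those of expressed genes and 17.4% of all. The median share of G and C was 58.4% in members, 60.0% in expressed genes and 52.0% in all promoters.

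The sequences below are the 250 bases before the RefSeq start site, on the gene's strand, 5′ to 3′, with E2F cores in capitals. Bard1 (chr1:71102973-71103222, minus strand), Chek2 (chr5:110839733-110839982, plus strand) and Topbp1 (chr9:103305077-103305326, plus strand) are shown as members at least 2-fold lower that hold a core. In Topbp1 a pair of cores overlaps. Ercc1 (chr7:19344821-19345070, plus strand) is shown as a member within 2-fold that holds one. Ung (chr5:114130185-114130434, plus strand) and Chek1 (chr9:36726659-36726908, minus strand) had the lowest log2 ratios of the 43 genes and show no core in this window.
Bard1: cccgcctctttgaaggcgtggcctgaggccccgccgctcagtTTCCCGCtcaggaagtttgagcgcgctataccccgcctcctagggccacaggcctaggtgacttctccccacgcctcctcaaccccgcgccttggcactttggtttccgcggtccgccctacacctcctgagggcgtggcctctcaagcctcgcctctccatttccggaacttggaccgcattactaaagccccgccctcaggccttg
Chek2: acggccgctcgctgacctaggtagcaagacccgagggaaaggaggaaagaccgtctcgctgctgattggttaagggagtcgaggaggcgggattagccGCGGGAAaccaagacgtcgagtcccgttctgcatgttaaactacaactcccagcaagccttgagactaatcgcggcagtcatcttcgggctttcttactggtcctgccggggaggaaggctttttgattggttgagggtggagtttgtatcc
Topbp1: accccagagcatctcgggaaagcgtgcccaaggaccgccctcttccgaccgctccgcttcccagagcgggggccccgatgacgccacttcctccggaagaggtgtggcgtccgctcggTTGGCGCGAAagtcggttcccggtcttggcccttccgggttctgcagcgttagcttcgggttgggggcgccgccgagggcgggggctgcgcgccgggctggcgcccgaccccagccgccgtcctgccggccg
Ercc1: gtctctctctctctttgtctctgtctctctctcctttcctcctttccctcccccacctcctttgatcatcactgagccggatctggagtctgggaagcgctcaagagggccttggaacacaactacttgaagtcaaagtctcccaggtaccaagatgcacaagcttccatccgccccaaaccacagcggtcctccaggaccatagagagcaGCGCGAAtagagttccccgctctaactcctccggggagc
Ung: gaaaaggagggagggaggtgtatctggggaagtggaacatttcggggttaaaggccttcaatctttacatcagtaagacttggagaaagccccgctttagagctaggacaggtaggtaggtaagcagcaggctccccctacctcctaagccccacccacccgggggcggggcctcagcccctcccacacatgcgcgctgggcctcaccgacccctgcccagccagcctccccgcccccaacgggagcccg
Chek1: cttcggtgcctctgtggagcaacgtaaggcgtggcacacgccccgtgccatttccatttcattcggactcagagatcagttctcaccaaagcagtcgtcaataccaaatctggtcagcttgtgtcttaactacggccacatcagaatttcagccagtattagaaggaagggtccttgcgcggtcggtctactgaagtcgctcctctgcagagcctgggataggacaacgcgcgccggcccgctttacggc

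In homologous recombination, every one of the 11 genes had a log2 ratio below 0. Brca1, which with its partner Bard1 forms the ubiquitin ligase that promotes end resection, had 2.63 FPKM in the Brg1KO library and 9.92 FPKM in the WT library (log2 ratio -1.59). Bard1 (chromosome 1, 71027535 to 71102972, mm10) had 1.11 FPKM in the Brg1KO library and 7.28 FPKM in the WT library (log2 ratio -1.97). The partners were thus both lower, Bard1 by more: the ratio of Bard1 to Brca1 levels was 0.423 in the Brg1KO library and 0.734 in the WT library. Brca2, a tumour suppressor that prepares resected DNA for strand exchange, had 1.40 FPKM in the Brg1KO library and 3.88 FPKM in the WT library (log2 ratio -1.03). Palb2, which links Brca1 to Brca2, had 1.12 FPKM in the Brg1KO library and 3.80 FPKM in the WT library (log2 ratio -1.18). Brip1, a helicase that binds Brca1, had 0.876 FPKM in the Brg1KO library and 3.40 FPKM in the WT library (log2 ratio -1.23). All 5 genes around Brca1 and Brca2 therefore passed the 2-fold rule.

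The enzymes of the later and earlier steps differed more among themselves. Rad54l (chromosome 4, 116096955 to 116123690), a motor protein that helps the broken end invade the sister strand, had 1.95 FPKM in the Brg1KO library and 10.9 FPKM in the WT library (log2 ratio -2.01). Exo1 (chromosome 1, 175880778 to 175911396), the exonuclease that resects ends and also serves mismatch repair, had 0.764 FPKM in the Brg1KO library and 5.41 FPKM in the WT library (log2 ratio -1.86). These were the lowest and the third lowest log2 ratios of the pathway, with Bard1 between them. The genes Xrcc3, Rad51c and Xrcc2, which act at strand exchange, were less uniform. Xrcc3 had 1.93 FPKM in the Brg1KO library and 7.39 FPKM in the WT library (log2 ratio -1.52). The others lay just inside the rule, Rad51c with 3.53 FPKM in the Brg1KO library and 7.31 FPKM in the WT library (log2 ratio -0.87). Xrcc2 had 4.89 FPKM in the Brg1KO library and 10.1 FPKM in the WT library (log2 ratio -0.91). On the plain FPKM scale both were below 50% of WT, at 48.3% for Rad51c and 48.6% for Xrcc2. Blm, the helicase that takes apart joined sister chromatids, stood closest to 0, with 2.41 FPKM in the Brg1KO library and 3.54 FPKM in the WT library (log2 ratio -0.41).

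In the Fanconi pathway, a core complex with the ubiquitin ligase Fancl marks the pair Fancd2 and Fanci at a crosslink. Fanca, the largest difference of the pathway, had 3.04 FPKM in the Brg1KO library and 11.6 FPKM in the WT library (log2 ratio -1.64). Fancl had 4.13 FPKM in the Brg1KO library and 11.9 FPKM in the WT library (log2 ratio -1.34). The core genes Fancc and Fancb followed, with log2 ratios of -1.26 and -1.22. Fancc had 4.998 FPKM in the Brg1KO library and 13.4 FPKM in the WT library, the highest WT level of the pathway. Fancb had 1.63 FPKM in the Brg1KO library and 5.15 FPKM in the WT library. The core complex did not move as a unit. Fancg stayed within 2-fold, with 6.48 FPKM in the Brg1KO library and 11.8 FPKM in the WT library (log2 ratio -0.78). Fance, the core subunit that contacts Fancd2, had 7.38 FPKM in the Brg1KO library and 6.39 FPKM in the WT library (log2 ratio 0.18), and its deposited bounds overlapped between the libraries. By FPKM it was the most abundant Fanconi gene in the Brg1KO library and the fifth most abundant in the WT library. By bound midpoints Fancd2 (7.40 FPKM) and Fanci (6.79 FPKM) also exceeded Fance (6.39 FPKM) in the WT library. Of the marked pair, Fancd2 passed the rule and Fanci did not. Fancd2 had 2.19 FPKM in the Brg1KO library and 5.63 FPKM in the WT library (log2 ratio -1.05). Fanci had 1.63 FPKM in the Brg1KO library and 3.51 FPKM in the WT library (log2 ratio -0.78, or -1.22 from the bound midpoints).

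The mismatch repair genes did not pass the rule, Msh6 only because of the added 1 FPKM. Msh6, which recognises mispaired bases, had 6.73 FPKM in the Brg1KO library and 13.7 FPKM in the WT library (log2 ratio -0.93, or -1.13 from the bound midpoints), so its FPKM was 49.1% of the WT value. Pms2, the endonuclease subunit that acts after recognition, had 5.95 FPKM in the Brg1KO library and 7.12 FPKM in the WT library (log2 ratio -0.22). Recognition and incision genes therefore differed in size, with Msh6 close to the rule and Pms2 far from it.

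Excision repair held the largest single difference and also 3 of the 5 genes with a log2 ratio above 0. Ung (chromosome 5, 114130435 to 114139321), the glycosylase that removes uracil from DNA, had 3.37 FPKM in the Brg1KO library and 25.45 FPKM in the WT library (log2 ratio -2.60), so the Brg1KO value was 13.3% of the WT value. By FPKM it was the third most abundant of the 43 genes in the WT library. The other base excision and strand break genes were much closer to the rule. Xrcc1, the scaffold of strand break repair, had 7.78 FPKM in the Brg1KO library and 16.6 FPKM in the WT library, and its log2 ratio lay on the cutoff of -1. Parp1, the sensor that marks strand breaks with ADP-ribose chains, had 10.6 FPKM in the Brg1KO library and 20.8 FPKM in the WT library (log2 ratio -0.91, or -1.07 from the bound midpoints). Ogg1, the glycosylase for oxidised guanine, had 4.75 FPKM in the Brg1KO library and 8.48 FPKM in the WT library (log2 ratio -0.72).

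Nucleotide excision repair, which cuts out bulky lesions, was the only subgroup named here in which more genes were above 0 (3) than below it (2). Xpc, which finds the lesion, had 2.83 FPKM in the Brg1KO library and 1.95 FPKM in the WT library (log2 ratio 0.37). Xpa, which verifies it, had 5.60 FPKM in the Brg1KO library and 4.20 FPKM in the WT library (log2 ratio 0.34). Ercc4 (chromosome 16, 13109736 to 13152009), the nuclease subunit that cuts beside the lesion, had 5.12 FPKM in the Brg1KO library and 3.27 FPKM in the WT library (log2 ratio 0.52), the highest ratio of the 43 genes. Its obligate partner Ercc1 went the other way. Ercc1 had 10.9 FPKM in the Brg1KO library and 18.5 FPKM in the WT library (log2 ratio -0.71). The ratio of Ercc1 to Ercc4 levels was 2.13 in the Brg1KO library and 5.67 in the WT library. Ercc2, the helicase of the transcription factor TFIIH that opens the lesion, had 10.6 FPKM in the Brg1KO library and 18.96 FPKM in the WT library (log2 ratio -0.78). None of the 5 genes (0) passed the 2-fold rule.

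Among the members, end joining genes had the smallest median difference. The Ku subunit genes Xrcc5 and Xrcc6, whose products clamp onto broken ends, had log2 ratios of -0.45 and -0.23. Xrcc5 had 9.67 FPKM in the Brg1KO library and 13.5 FPKM in the WT library. Xrcc6 had 5.08 FPKM in the Brg1KO library and 6.12 FPKM in the WT library. Lig4, the ligase that seals the break, had 2.09 FPKM in the Brg1KO library and 2.85 FPKM in the WT library (log2 ratio -0.32). Prkdc, the catalytic kinase subunit recruited by Ku, had 3.19 FPKM in the Brg1KO library and 2.53 FPKM in the WT library (log2 ratio 0.25), with overlapping deposited bounds. From the bound midpoints the pathway median was -0.54, still the smallest in size of the 6 pathways.

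Checkpoint genes differed among themselves. The apical kinases Atm, which responds to breaks, and Atr, which responds to stalled forks, did not pass the 2-fold rule, though Atm lay close to it. Atm had 4.36 FPKM in the Brg1KO library and 8.66 FPKM in the WT library (log2 ratio -0.85, or -0.99 from the bound midpoints). Its FPKM in the Brg1KO library was 50.4% of the WT value. Atr had 5.78 FPKM in the Brg1KO library and 8.34 FPKM in the WT library (log2 ratio -0.46). The kinases they activate differed more. Chek1 (chromosome 9, 36708482 to 36726658), the target of Atr, had 4.51 FPKM in the Brg1KO library and 26.1 FPKM in the WT library (log2 ratio -2.30). Chek2 (chromosome 5, 110840017 to 110874133), the target of Atm, had 3.46 FPKM in the Brg1KO library and 12.5 FPKM in the WT library (log2 ratio -1.60). The effector was more abundant than its activator in the WT library and less abundant in the Brg1KO library for both pairs. The ratio of Chek1 to Atr levels was 0.781 in the Brg1KO library and 3.13 in the WT library, and that of Chek2 to Atm was 0.793 in the Brg1KO library and 1.44 in the WT library. From the bound midpoints the ratios kept this order, with 0.431 and 1.82 for Chek1 to Atr and 0.767 and 1.28 for Chek2 to Atm.

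Mediators connect stalled forks to Chek1. Clspn, the adaptor that presents Chek1 to Atr, had 1.21 FPKM in the Brg1KO library and 4.52 FPKM in the WT library (log2 ratio -1.32, or -1.98 from the bound midpoints). Topbp1, the activator of Atr, had 11.95 FPKM in the Brg1KO library and 26.3 FPKM in the WT library (log2 ratio -1.08). By FPKM it was the most abundant of the 43 genes in both libraries, whereas by bound midpoints Parp1 was. Timeless, a fork protection factor, had 3.03 FPKM in the Brg1KO library and 6.88 FPKM in the WT library (log2 ratio -0.97). Mre11a and Rad50, the nuclease and tether of the complex that senses breaks for Atm, had similar log2 ratios, both within 2-fold. Mre11a had 2.67 FPKM in the Brg1KO library and 3.83 FPKM in the WT library (log2 ratio -0.40, or -0.70 from the bound midpoints). Rad50 had 1.88 FPKM in the Brg1KO library and 2.73 FPKM in the WT library (log2 ratio -0.37, or -0.61 from the bound midpoints). The ratio of Mre11a to Rad50 levels was 1.42 in the Brg1KO library and 1.41 in the WT library.

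**Figure D2:**
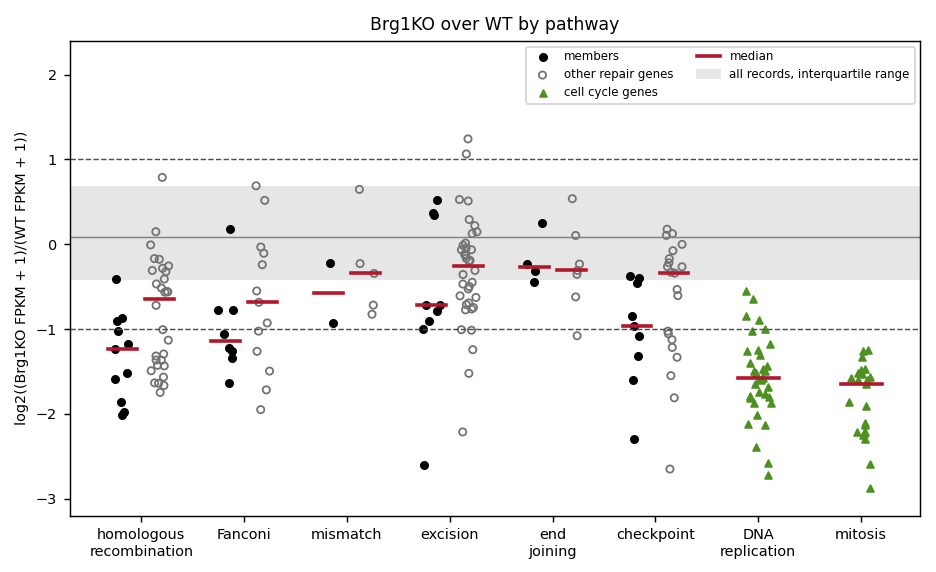
Log2 ratio of Brg1KO over WT for the 43 members (filled circles) and other expressed repair genes (open circles) by pathway, and for DNA replication and mitosis genes (triangles); red bars are medians, the grey band is the interquartile range of all compared records and dashed lines mark 2-fold. Members of homologous recombination and Fanconi have medians of -1.23 and -1.14. The end joining members have a median of -0.27, inside the grey band, with Xrcc5 just below the band.

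A further 120 genes of the same pathways were listed, of which 113 were found and 112 compared. Of these, 33 were at least 2-fold lower in the Brg1KO library and 2 at least 2-fold higher, with a median log2 ratio of -0.47. Among all compared records 8.67% were lower and 16.1% higher by this rule, with a median of 0.09. By pathway, 14 of 30 homologous recombination genes, 5 of 13 Fanconi genes, 8 of 21 checkpoint genes, 5 of 36 excision genes, 1 of 7 end joining genes and 0 of 5 mismatch genes were lower. Median log2 ratios of these other genes were -0.68 for Fanconi and -0.64 for homologous recombination. They were -0.34 for checkpoint, -0.34 for mismatch, -0.31 for end joining and -0.25 for excision. The order of the pathways thus differed from that of the members, and end joining did not have the smallest median. Among the lower genes in homologous recombination were the fork repair partners Mms22l (log2 ratio -1.67) and Tonsl (-1.63), and Rad51ap1 (-1.64). In the Fanconi group, the core gene Fancf had 3.0001 FPKM in the Brg1KO library and 14.5 FPKM in the WT library (log2 ratio -1.95). Apitd1 (-1.72), the ubiquitin-conjugating enzyme gene Ube2t (-1.50) and Mad2l2 (-1.26) were lower too.

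Among the other checkpoint genes, H2afx, the histone variant phosphorylated around breaks, had 18.6 FPKM in the Brg1KO library and 122.1 FPKM in the WT library (log2 ratio -2.65). Wee1, the kinase that restrains Cdk1, had a log2 ratio of -1.81, and the Cdc25c and Cdc25b phosphatase genes that oppose it had -1.55 and -1.33. Among the other excision genes, the glycosylase gene Neil3 had 4.73 FPKM in the Brg1KO library and 25.6 FPKM in the WT library (log2 ratio -2.21). The ligase gene Lig1 and the flap nuclease gene Fen1, which also join fragments at replication forks, had -1.52 and -1.24. The 2 higher genes were both in the excision list. Mpg, a glycosylase for alkylated bases, had 6.84 FPKM in the Brg1KO library and 2.31 FPKM in the WT library (log2 ratio 1.24). Parp3, a relative of Parp1, had 6.12 FPKM in the Brg1KO library and 2.403 FPKM in the WT library (log2 ratio 1.07). In end joining the lower gene was Tdp2 (log2 ratio -1.08), which frees broken ends from trapped topoisomerase.

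Genes of DNA replication and mitosis were lower in the same library. The replication list held 34 genes, of which 29 passed the rule as lower and 0 as higher (median -1.58), among them Pcna, the sliding clamp, with 121.1 FPKM in the Brg1KO library and 320.7 FPKM in the WT library. Mcm7 of the replicative helicase had 42.3 FPKM in the Brg1KO library and 102.8 FPKM in the WT library. The mitosis list was lower by at least 2-fold in all 23 genes (median -1.65), among them Ube2c (log2 ratio -2.87) and Ccna2 (-2.25). Of the 43 repair genes, 8 lay at or below the replication median and 5 at or below the mitosis median. How much of the difference in repair genes goes with the share of dividing cells was not tested.

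Most markers of mature cell types, other than endothelial cells, were at least 2-fold higher in the Brg1KO library, against 16.1% of all compared records. At least 2-fold higher were 9 of 10 Purkinje cell markers, 6 of 6 GABAergic interneuron markers, 9 of 10 granule neuron markers, 9 of 9 astrocyte and Bergmann glia markers, 8 of 8 oligodendrocyte markers, 8 of 9 microglia and macrophage markers and 1 of 6 compared endothelial markers. The tenth Purkinje marker, Cbln4, was at least 2-fold lower. The endothelial markers Flt1 (log2 ratio 0.98) and Tek (0.94) missed the rule only because of the added 1 FPKM. On the plain FPKM scale they were 4.21-fold and 4.76-fold higher in the Brg1KO library. Cdh5, Cldn5 and Slco1c1 were below 2-fold on that scale too. Summed marker levels in the Brg1KO and the WT library were 777.4 and 31.3 FPKM for Purkinje cells, 538.8 and 61.004 FPKM for interneurons, and 661.03 and 123.6 FPKM for granule neurons. They were 2572 and 498.0 FPKM for astrocytes and Bergmann glia, 689.6 and 63.3 FPKM for oligodendrocytes, 446.2 and 183.4 FPKM for microglia and macrophages, and 37.5 and 22.3 FPKM for endothelial cells. No marker (0) was listed at 0 in either library. Their part in the difference of repair genes was not tested.

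**Figure D3:**
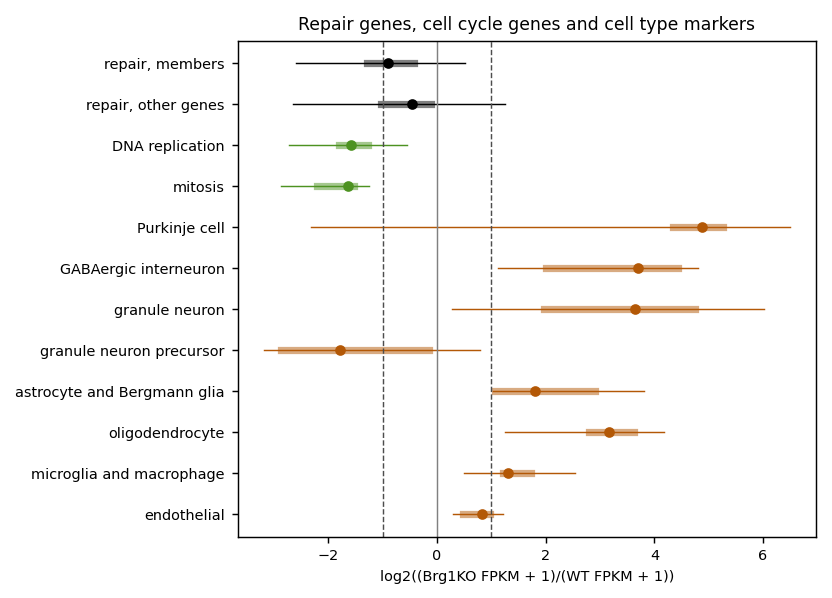
Median (dot), interquartile range (thick bar) and full range (thin line) of log2 ratios of Brg1KO over WT for repair genes, cell cycle genes and cell type markers; dashed lines mark 2-fold. The repair members have a median of -0.91, between replication genes at -1.58 and the mature cell markers, whose medians run from 0.83 for endothelial cells to 4.87 for Purkinje cells.

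The tables also give a lower and an upper bound for every FPKM value. The FPKM of 18 members in the Brg1KO library and of 25 members in the WT library lay outside its own bounds, so the level of these genes is uncertain. This is a feature of the tables as a whole: FPKM lay inside its bounds for 48.8% of all compared records in the Brg1KO library and 51.0% in the WT library. Clspn, for example, had bounds of 2.93 to 3.55 around an FPKM of 1.21 in the Brg1KO library and bounds of 15.05 to 16.5 around 4.52 in the WT library. For Xrcc6 the bounds were 11.6 to 13.6 in the Brg1KO library and 17.7 to 20.3 in the WT library, well above its FPKM in both. For Chek1 they were lower than its FPKM, at 2.17 to 2.83 in the Brg1KO library and 14.3 to 16.2 in the WT library. The ratios were less affected than the levels. Log2 ratios from the bound midpoints lay within 0.2 of those from FPKM for 33 of the 43 genes, and the largest shift was that of Clspn. The Brg1KO bounds lay wholly below the WT bounds for 38 members and for 36.1% of all compared records. They lay wholly above for Xpc and Ercc4, against 41.6% of all compared records. The bounds describe each library on its own and hold no spread between animals.

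**Figure D4:**
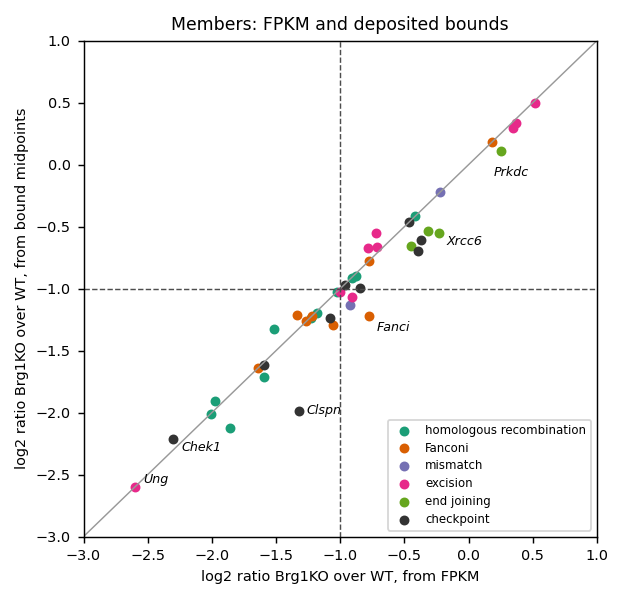
Log2 ratio of Brg1KO over WT for the 43 genes from FPKM (horizontal axis) and from bound midpoints (vertical axis), coloured by pathway, with the line of equality and dashed lines at 2-fold lower. On the 2 axes 33 genes lie within 0.2 of each other, and Clspn and Fanci lie farthest below the line.

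Reads of overlapping genes could add to some values, since it is not stated whether counting used strand. In GENCODE M21, 15 of the 43 genes shared exon bases with another protein-coding gene, and 6 shared over 10% of them. These were Ercc2 with Klc3 (17.8%), Fanci with Polg (15.95%), Rad54l with Lrrc41 (15.4%), Fancl with Vrk2 (13.7%), Ogg1 with Camk1 (10.6%) and Fanca with Zfp276 (10.5%), all on opposite strands. These are shares of exon bases and not of reads, so the values of these 6 genes are uncertain by an unknown amount.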

How the data were processed

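Gene expression was measured in 2 tumours, 1 per genotype. The deposited values are FPKM per gene, with lower and upper bounds also in FPKM and a status, per the file headers. All 43 members had status OK in both libraries. The submitters' processing notes list mm10 and Cuffdiff 2.1.1 without a role. No aligner, annotation or filter is named there or in the files. FPKM values give no depth. Among 650 records under 0.05 FPKM in both libraries, the fullest log2 bin of ratios held 50. That count does not settle whether ratios gather at steps of whole reads, so no counting precision can be stated.

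Records were joined by symbol and locus. Deposited starts count from 0: 55.6% of records matched a RefSeq start after adding 1 and 3.34% without. Coordinates here count from 1. Log2 ratios used a pseudocount of 1 FPKM and records with at least 1 FPKM in a library. Lists are described by counts and medians beside all compared records, with no test. Named beyond the members were Smarca4, other repair genes at least 2-fold different with at least 5 FPKM (up to 4 per pathway, and every higher one) and the 2 most abundant genes of each cell cycle list; a gene that this rule took is not reported here. Members and lists were chosen with earlier results of these data known. Scripts were tested on simulated data. Alternatives covered pseudocounts, scaling, filters, bounds, thresholds and pathway assignment. The work ran in Python 3.11.15 with pandas 2.3.3, numpy 2.4.6 and, for the plots, matplotlib 3.10.9.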

Additional observations from a re-analysis of the deposited data

How the results depend on the processing

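No alternative reversed the sign of any of the 43 log2 ratios, and 33 genes kept their side of the 2-fold rule under every alternative, other than the thresholds, that included them. Of the 19 lower genes 15 did so; with FPKM rescaled to the same sum, which moved the median of all compared records to 0.24, Brca2 (-0.90), Fancd2 (-0.92), Xrcc1 (-0.84) and Topbp1 (-0.91) came inside the rule, and without small RNA genes in the sum Brca2 (-0.98) and Xrcc1 (-0.94) did. Rescaling to the same sum raised the share of higher records among all 2-fold calls to 74.8%, against 65.0% as deposited. The median of the 43 genes passed the rule with a pseudocount of 0.1 (-1.03) and from bound midpoints (-1.02). The checkpoint median passed it with pseudocounts of 0.1 (-1.13) and 0.5 (-1.06), after centring on the median (-1.05), among genes of at least 5 FPKM (-1.02) and with Mre11a and Rad50 counted under homologous recombination (-1.08). A 1.5-fold rule called 30 members lower, with 2386 records lower and 3727 higher. A 4-fold rule called 3 members and 2 other repair genes lower, with 199 records lower and 554 higher. The filter at 5 FPKM kept 32 members. No paired analysis was possible because each genotype has 1 library, and no replicate could be left out. Depth is unknown, so the precision of low values such as Exo1 and Brip1 in the Brg1KO library cannot be stated.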
